A study of Mus musculus with 24 samples.

Results

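The genes of the synaptic vesicle and the active zone, the machinery that stores transmitter and releases it, were followed in retinas of male C57BL/6J mice after blast-mediated traumatic brain injury (bTBI). They are 45 genes chosen by name, of 16387 genes in the data, and were sorted by role. The roles were 11 genes of synaptotagmins and Doc2b, 7 vesicle membrane proteins, 3 synapsins and 5 genes of Rab3 and its effector rabphilin. The others were 13 active zone genes and 6 genes of endocytosis and vesicle chaperoning. Figures label the first role calcium sensors, and whether each of its genes senses calcium was not tested. All 45 were measured at both timepoints. The study sequenced polyadenylated RNA of 24 retinas in 4 groups of 6, with bTBI and sham mice at 1 week (8 days in the sample labels) and bTBI and sham mice at 5 weeks. The mice were wild type and 13 to 17 weeks old when a blast wave in an enclosed chamber reached them, and the sham mice were handled alike but not exposed to the wave. Each retina came from a separate mouse and from the eye that faced the blast.

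Neurons keep transmitter in synaptic vesicles, and release follows when calcium that enters the terminal binds synaptotagmins, which then drive fusion with the membrane. At the active zone, RIM, RIM-binding protein, Munc13, Bassoon and Piccolo hold vesicles close to calcium channels and prepare them for fusion, while Rab3 and rabphilin link vesicles to that scaffold and synapsins tether the reserve. In the retina, photoreceptors and bipolar cells release from ribbon synapses, amacrine cells from conventional synapses, and retinal ganglion cells (RGCs) send their axons out of the eye, so that their release sites lie in the brain while their transcripts are made in the retina.

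Reads in the genes kept after low genes were removed numbered 14301989 to 25158638 per retina, taken from the smallest step between values. Their median was 19210634 in bTBI and 20817594 in sham retinas at 1 week, and 16990374 and 21613805 at 5 weeks. A member had between 45 reads (Syt12) and 38627 reads (Syt1) in a retina, so that counting error was small for all but the rarest members. Values are CPM, read counts scaled to a normalised library size. The labels give RGC as the cell type, but the mean log2(CPM + 1) of 10 bipolar cell markers was 6.84 to 7.10 in sham retinas at 1 week, above the 6.18 to 6.44 of 13 RGC markers, so the libraries held other cells of the retina too. In such samples fewer cells of a type and less RNA per cell cannot be told apart. The RNA kit was RNeasy Plus Mini at 1 week and RNeasy Mini at 5 weeks, so kit and timepoint cannot be told apart, and levels were not compared between the timepoints. At 1 week, bTBI replicates 5 and 6 were rich in lens transcripts, with a mean log2(CPM + 1) over 13 lens genes of 6.95 and 6.71 against 0.72 to 3.82 in sham retinas. Mbp, which encodes a myelin protein, reached 2531 CPM in bTBI replicate 3 and 139 CPM in bTBI replicate 4, while sham retinas had 38.3 to 42.0 CPM.

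Length-scaled levels of the members spanned a wide range in sham retinas. At 1 week the mean level per kb of exon ran from 0.950 CPM per kb for Syn3, the least abundant synapsin, to 182 CPM per kb for Syt1, the main fast calcium sensor of the brain, with a median of 20.8 CPM per kb. At 5 weeks the same genes stood at the ends, with 0.730 and 136 CPM per kb around a median of 16.5. Rab3a, the main vesicle GTPase, followed Syt1 at 1 week with 171 CPM per kb, and the vesicle protein synaptophysin (Syp) came next with 166 CPM per kb. The order within a family was steep. Syt2, a fast sensor close in sequence to Syt1, had 7.63 CPM per kb at 1 week, and Rab3b and Rab3d had 2.09 and 1.69 CPM per kb beside Rab3a. The spread between sham retinas was small, with a median coefficient of variation of 6.87% at 1 week and 5.00% at 5 weeks over the members.

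**Figure D1:**
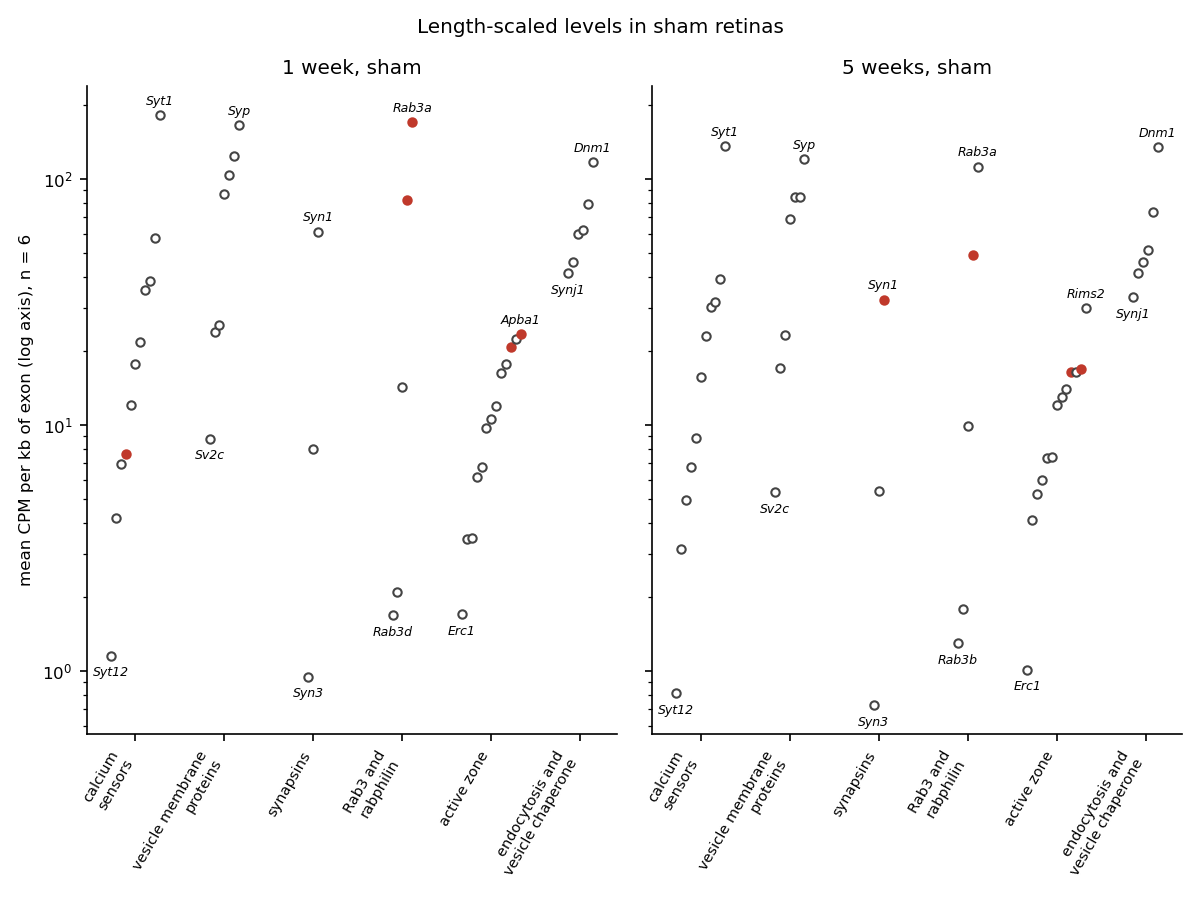
Mean level of each of the 45 members in the 6 sham retinas of each timepoint, in CPM per kb of exon on a log axis, by role. Filled points mark members past the threshold in the comparison of bTBI with sham at that timepoint, and the lowest and highest member of each role are named. Levels of the members past the threshold at 1 week ran from 7.63 CPM per kb (Syt2) to 171 CPM per kb (Rab3a).

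The sequences in front of the start sites were searched for promoter motifs. RefSeq gave windows for 35 of the 45 members, 49 windows of 250 bases upstream of a start, set beside 32851 such windows of all genes. The median GC content was 62% in the member windows and 52.4% in all windows. The GC box GGGCGG stood in 61.2% of the member windows and in 32.7% of all windows, counted on both strands. The TATA box TATAAA was in 6.12% and 12.4%, and the CCAAT box CCAAT in 22.4% and 33.8%. The E-box CACGTG was in 8.16% (4 windows of 3 genes) and 6.02%. The cAMP response element TGACGTCA was in 4.08% (2 windows) and 1.55%. The left arm of RE1, the element bound by the neuronal repressor REST, searched as TTCAGCACC, was in 2.04% of member windows (Syn1) and in 0.301% of all windows. The right arm was in 0 of the 49 member windows and in 0.0974% of all windows. None of these matches is a measured binding site. The windows of the 3 members that passed the threshold and have a single RefSeq start are shown 5′ to 3′, on the strand of the gene in GRCm38.p6, with the motif matches in capitals. That of Apba1 lies at chr19:23758626-23758875 (plus strand) and holds 2 GC boxes. The window of Rims3 lies at chr4:120854549-120854798 (plus strand) and holds 3 GC boxes. For Syn1 the 164 bases at chrX:20921005-20921168 (minus strand) are given, with the left arm of RE1 and a cAMP response element.
Apba1: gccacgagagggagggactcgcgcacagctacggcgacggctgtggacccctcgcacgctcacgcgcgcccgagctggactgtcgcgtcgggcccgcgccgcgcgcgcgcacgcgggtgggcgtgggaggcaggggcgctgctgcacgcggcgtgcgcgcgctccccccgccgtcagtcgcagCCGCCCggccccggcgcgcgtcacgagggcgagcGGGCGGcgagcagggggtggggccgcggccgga
Rims3: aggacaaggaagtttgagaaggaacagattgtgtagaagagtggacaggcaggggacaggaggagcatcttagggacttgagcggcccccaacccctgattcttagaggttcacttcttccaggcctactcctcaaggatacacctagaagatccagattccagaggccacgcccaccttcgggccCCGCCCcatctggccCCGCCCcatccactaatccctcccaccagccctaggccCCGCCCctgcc
Syn1: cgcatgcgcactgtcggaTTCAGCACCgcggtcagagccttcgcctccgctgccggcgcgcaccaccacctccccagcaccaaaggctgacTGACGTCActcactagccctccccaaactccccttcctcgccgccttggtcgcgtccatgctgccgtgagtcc

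To ask how bTBI altered this machinery, bTBI and sham retinas were compared within each timepoint, with genes called differentially expressed at an adjusted p under 0.005 (limma on log2(CPM + 1), Benjamini-Hochberg over all genes). At 1 week 5 of the 45 members were lower in bTBI retinas (11.1%), beside 0.985% of all 14922 genes tested. They were Syt2, Rab3a, Rph3a, Rims3 and Apba1. At 5 weeks 4 of 45 were lower (8.89%), beside 0.823% of 15920 genes, namely Syn1, Rph3a, Rims3 and Apba1. With a common prior variance for all genes (limma's trend switched off) none of these 4 passed, with adjusted p of 0.0164 to 0.0262 by limma. Syn1 also missed the threshold when both timepoints were fitted jointly (adjusted p = 0.0167 by limma). By limma 0 members were higher at either timepoint, where 1.27% of all genes were higher at 1 week and 0.0126% at 5 weeks. At an unadjusted p under 0.05, 23 members were lower and 1 was higher at 1 week, beside 8.93% and 8.32% of all genes. At 5 weeks 18 were lower and 4 higher, beside 6.95% and 3.97%. With an adjusted p under 0.05, 11 members were lower at 1 week (3.06% of all genes) and 7 at 5 weeks (1.93%), and 0 were higher, where 3.02% and 0.113% of all genes were. Rph3a, Rims3 and Apba1 were called at both timepoints, which is 60% of the calls at 1 week and 75% of those at 5 weeks, and 6.67% of the members beside 0.602% of the 14455 genes in both tables.

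The estimates were small and mostly below 0. The median log2 fold change of the members was -0.13 at 1 week and -0.06 at 5 weeks, beside -0.00024 and 0.0012 over all genes. At 1 week 36 of 45 members had a log2 fold change below 0, beside 50.1% of all genes, and at 5 weeks 32 of 45, beside 49.4%. In 7 members every bTBI retina lay below every sham retina at 1 week, beside 2.25% of all genes. They were the 5 called members with Syt7 and Rimbp2. In 0 members every bTBI retina lay above every sham retina at 1 week, beside 1.59% of all genes. At 5 weeks the same held for 5 members (Syn1, Rab3a, Rph3a, Rims3 and Apba1), beside 1.75% of all genes, and in 2 members, Doc2b and Sv2b, every bTBI retina lay above every sham retina, beside 0.239%. Close to the threshold, Syt2 at 5 weeks (adjusted p = 0.00511 by limma), Rimbp2 at 1 week (0.00542) and Sv2c at 5 weeks (0.00574) were just outside it, and Rab3a at 1 week (0.00462) was just inside.

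**Figure D2:**
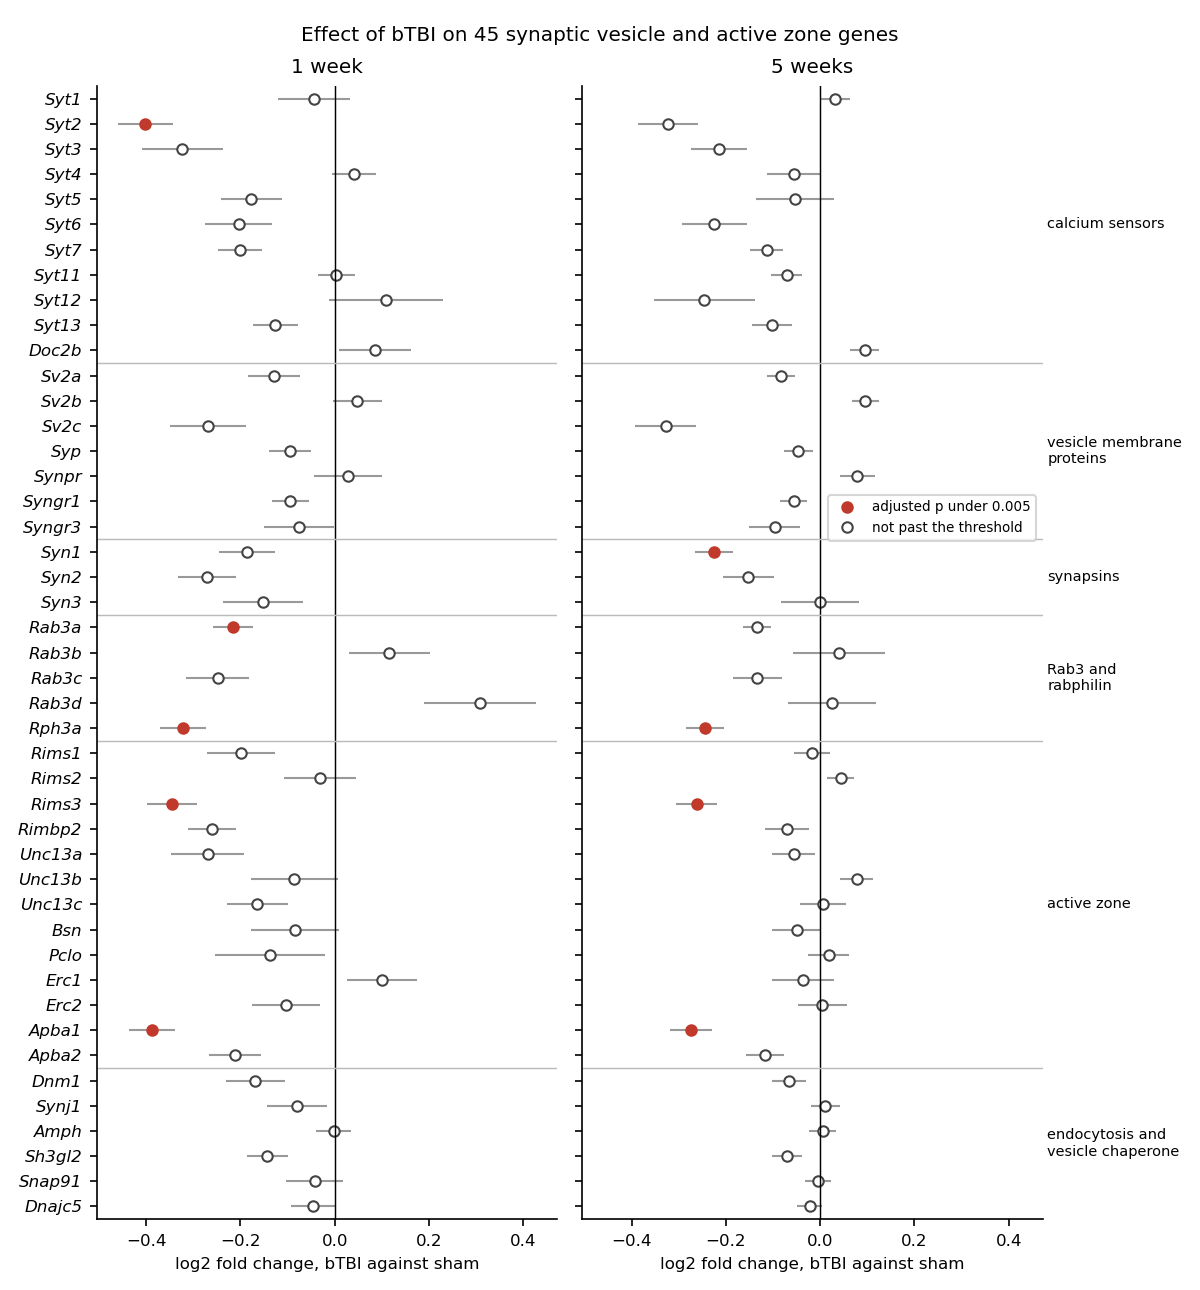
Log2 fold change of bTBI against sham for the 45 members at 1 week and 5 weeks, on the log2(CPM + 1) scale, grouped by role. Points are limma estimates from 6 retinas a group, bars are the standard error, and filled points passed an adjusted p of 0.005. The filled points, 5 at 1 week and 4 at 5 weeks, all lie to the left of 0.

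Among the 11 genes of synaptotagmins and Doc2b, 1 was lower at 1 week and 0 at 5 weeks. Called lower over all genes were 0.985% and 0.823%. Syt2 (chr1:134646677-134762593 in GRCm38) encodes a fast calcium sensor. At 1 week it had 53.9, 59.6 and 61.8 CPM in sham retinas (lowest, median and highest of 6) and 39.1, 43.9 and 47.6 CPM in bTBI retinas. The groups did not overlap, and the log2 fold change was -0.40 ± 0.06 (SE, adjusted p = 0.000609 by limma), a mean of 75.3% of sham. At 5 weeks Syt2 had 35.0, 37.8 and 42.0 CPM in sham and 27.1, 29.4 and 36.3 CPM in bTBI retinas. Only bTBI replicate 4, the highest, reached into the sham range, and the log2 fold change was -0.32 ± 0.06 (SE, adjusted p = 0.00511 by limma). Without that retina the adjusted p was 0.00016, and without any other retina it was 0.00526 to 0.0189. Syt2 passed the threshold at 5 weeks under 4 of 8 alternatives, and had an adjusted p of 0.0366 by limma with a prior without trend. The 4 were another scaling, a robust prior, the joint fit of both timepoints and the replicate block (adjusted p = 0.00282 by limma). The replicate numbers were not taken as pairs. Syt1, the most abundant member, was at -0.04 (95% interval -0.21 to 0.12) at 1 week. Its estimate at 5 weeks was 0.03 (-0.04 to 0.10). Of the slower or less studied sensors, Syt3 (-0.32, adjusted p = 0.0347 by limma) and Syt7 (-0.20, adjusted p = 0.0168), a sensor of asynchronous release, were below 0.05 at 1 week. Apart from these, the lowest and highest log2 fold changes of the class were -0.20 (Syt6) and 0.11 (Syt12) at 1 week. At 5 weeks Syt12 had the lowest after Syt2 (-0.25) and Doc2b the highest (0.09). Doc2b, a high-affinity sensor of spontaneous release, had 134, 139 and 141.0 CPM in sham and 141.0, 149 and 153 CPM in bTBI retinas at 5 weeks. Its groups met without overlapping, and it did not pass the test (0.09 ± 0.03, adjusted p = 0.185 by limma).

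Of the 7 vesicle membrane proteins 0 were called at either timepoint by limma. Calls over all genes were 0.985% lower and 1.27% higher at 1 week, and 0.823% and 0.0126% at 5 weeks. At an unadjusted p under 0.05, 3 of the 7 were lower at 1 week, and 2 were lower and 2 higher at 5 weeks. Over all genes 8.93% were lower at that p at 1 week, and 6.95% were lower and 3.97% higher at 5 weeks. Sv2c, the least abundant SV2 protein here, had the smallest p of the class. At 1 week it had 71.2, 86.1 and 98.7 CPM in sham and 58.8, 71.1 and 82.6 CPM in bTBI retinas, and the groups overlapped (-0.27 ± 0.08, adjusted p = 0.0627 by limma). At 5 weeks it had 44.5, 52.3 and 60.2 CPM in sham and 36.0, 43.0 and 44.8 CPM in bTBI retinas. There 5 of the 6 bTBI retinas lay below every sham retina (-0.33 ± 0.06, adjusted p = 0.00574 by limma). Without sham replicate 6 the adjusted p was 0.00161, but no other omission passed the threshold, with values up to 0.0212, and 2 of 8 alternatives did, with values up to 0.0540. Sv2b, the SV2 protein of ribbon synapses, had the largest positive estimate of all members at 5 weeks. It had 557, 574 and 601 CPM in sham and 603, 614 and 641 CPM in bTBI retinas, which did not overlap (0.10 ± 0.03, adjusted p = 0.108 by limma). At 1 week Sv2b had 794, 874 and 926 CPM in sham and 829, 898 and 989 CPM in bTBI retinas, which overlapped (0.05 ± 0.05, adjusted p = 0.731 by limma). Sv2a, Syp, Synpr, Syngr1 and Syngr3, which include the tetraspan proteins of the vesicle, lay between -0.13 and 0.08 at both timepoints.

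The 3 synapsins coat the vesicle and hold it in the reserve pool. Syn1 (chrX:20860511-20921004) was called at 5 weeks, with 97.8, 108 and 112 CPM in sham and 83.0, 92.2 and 96.8 CPM in bTBI retinas. Every bTBI retina lay below every sham retina, and the log2 fold change was -0.22 ± 0.04 (SE, adjusted p = 0.00226 by limma), a mean of 85.4% of sham. This call was lost when any of 7 of the 12 retinas was left out (sham replicates 1, 2, 4 and 5, and bTBI replicates 1, 2 and 3), with an adjusted p of up to 0.00918. At 1 week Syn1 had 182, 205 and 218 CPM in sham and 160, 177 and 197 CPM in bTBI retinas, which overlapped (-0.19 ± 0.06, adjusted p = 0.0852 by limma). Syn2 had the lowest estimate of the family at 1 week (-0.27, adjusted p = 0.0144 by limma). Its estimate at 5 weeks was -0.15 (adjusted p = 0.221). Syn3 was at -0.15 and -0.00057.

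Among Rab3 and rabphilin, 2 of 5 genes were lower at 1 week and 1 of 5 at 5 weeks. The shares of all genes called lower were 0.985% and 0.823%. Rph3a (chr5:120940499-121010092), the Rab3 effector rabphilin, had 363, 377 and 406 CPM in sham and 283, 302 and 331 CPM in bTBI retinas at 1 week. The groups stood apart, with a log2 fold change of -0.32 ± 0.05 (SE, adjusted p = 0.000800 by limma). At 5 weeks it had 213, 230.1 and 243 CPM in sham and 176, 194 and 210 CPM in bTBI retinas, again apart, with -0.24 ± 0.04 (SE, adjusted p = 0.000890 by limma). Rab3a (chr8:70754679-70758677) had 369, 381 and 387 CPM in sham and 296, 332 and 345 CPM in bTBI retinas at 1 week. Its groups did not overlap, with -0.22 ± 0.04 (SE, adjusted p = 0.00462 by limma), but the call was lost when any retina but bTBI replicate 1 was left out, with an adjusted p of up to 0.0149. At 5 weeks Rab3a had 241, 252 and 258 CPM in sham and 222, 226 and 238 CPM in bTBI retinas. The groups did not overlap there either, and the test was not passed (-0.13 ± 0.03, adjusted p = 0.0137 by limma). Rab3c had estimates close to those of Rab3a. They were -0.25 (adjusted p = 0.0383 by limma) at the earlier and -0.13 (adjusted p = 0.296) at the later timepoint. Rab3d, a form known from secretory cells, had the largest positive estimate of all members at 1 week. It had 5.40, 6.90 and 9.28 CPM in sham and 7.20, 8.82 and 10.7 CPM in bTBI retinas, which overlapped (0.31 ± 0.12, adjusted p = 0.173 by limma). At 5 weeks Rab3d had 6.34, 7.23 and 9.19 CPM in sham and 6.12, 8.05 and 8.53 CPM in bTBI retinas (0.02 ± 0.09, adjusted p = 0.966), and the rare Rab3b stood at 0.12 and 0.04.

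Of the 13 active zone genes, 2 were lower at each timepoint (the same genes), beside 0.985% and 0.823% of all genes. Apba1 (chr19:23758887-23949596) encodes Mint1, an adaptor that binds Munc18 and CASK. It had 153, 160.2 and 170.2 CPM in sham and 115, 121 and 138 CPM in bTBI retinas at 1 week. No bTBI retina reached the sham range, and the log2 fold change was -0.39 ± 0.05 (SE, adjusted p = 0.000275 by limma), a mean of 76.3% of sham. At 5 weeks it had 107, 113 and 119 CPM in sham and 83.4, 94.2 and 103 CPM in bTBI retinas, also apart, with -0.27 ± 0.04 (SE, adjusted p = 0.000789 by limma). Rims3 (chr4:120854816-120896579) encodes RIM3, a short RIM that modulates calcium channels. At 1 week it had 152, 167 and 175 CPM in sham and 123, 126 and 149.6 CPM in bTBI retinas. The groups were close but apart, since bTBI replicate 2 lay just under the lowest sham retina, and the log2 fold change was -0.34 ± 0.05 (SE, adjusted p = 0.000922 by limma). At 5 weeks Rims3 had 124, 133 and 148 CPM in sham and 105, 113 and 120 CPM in bTBI retinas (-0.26 ± 0.04, adjusted p = 0.00107 by limma). For the large scaffolds the estimates were closer to 0. Bassoon (Bsn), Piccolo (Pclo), Erc1 and Erc2 had log2 fold changes between -0.14 and 0.10 at 1 week and between -0.05 and 0.02 at 5 weeks. Rims1 and Rims2, the long RIM proteins that dock vesicles, were at -0.20 and -0.03 at 1 week, and at -0.02 and 0.04 at 5 weeks. The priming factors of the Munc13 family, Unc13a, Unc13b and Unc13c, had estimates of -0.27 to -0.09 at the earlier timepoint and of -0.06 to 0.08 at the later. Rimbp2, which ties RIM to calcium channels, had 26.0, 27.2 and 28.7 CPM in sham and 21.4, 22.4 and 24.01 CPM in bTBI retinas at 1 week. Those groups did not overlap, yet it missed the threshold (-0.26 ± 0.05, adjusted p = 0.00542 by limma), and at 5 weeks its estimate was -0.07. Rimbp2 passed at 1 week with scaling to the total of the genes kept, where Rab3a did not. It also passed in the joint fit of both timepoints.

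**Figure D3:**
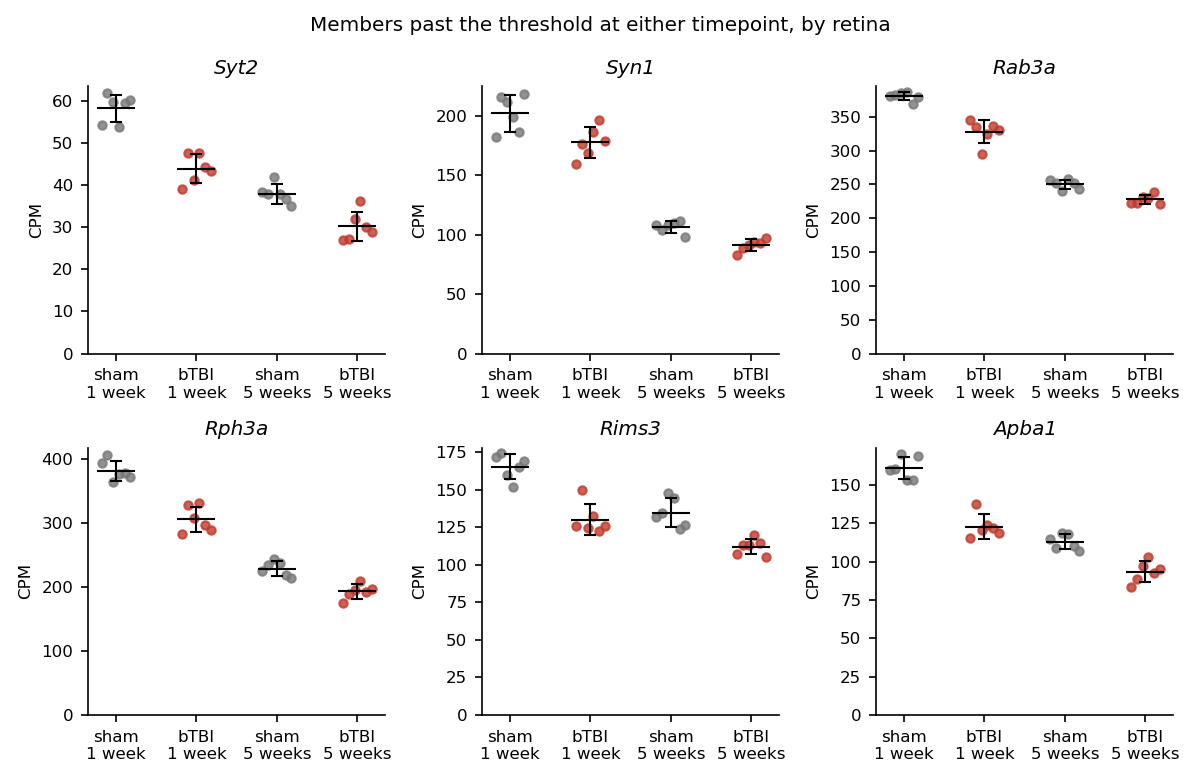
Level in CPM of the 6 members past the threshold at either timepoint, by retina (points, 6 a group), with the mean and the SD as bars. The axes start at 0. All bTBI retinas lay below all sham retinas for Syt2, Rab3a, Rph3a, Rims3 and Apba1 at 1 week and for Syn1, Rab3a, Rph3a, Rims3 and Apba1 at 5 weeks, where only the highest bTBI retina of Syt2 entered the sham range. Levels are not comparable between the timepoints.

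The 6 genes of endocytosis and vesicle chaperoning gave 0 calls by limma. Calls over all genes were 0.985% lower and 1.27% higher at 1 week, and 0.823% and 0.0126% at 5 weeks. At an unadjusted p under 0.05, 2 of the 6 were lower at 1 week and 1 at 5 weeks, beside 8.93% and 6.95% of all genes. The smallest p was that of Sh3gl2, which encodes endophilin A1, a membrane-bending protein that recruits synaptojanin. It had 390.1, 408 and 429 CPM in sham and 349, 362 and 397 CPM in bTBI retinas at 1 week, where 5 of 6 bTBI retinas lay below every sham retina (-0.14 ± 0.04, adjusted p = 0.0633 by limma). At 5 weeks it had 283, 300.4 and 319 CPM in sham and 279, 287 and 291 CPM in bTBI retinas, which overlapped (-0.07 ± 0.03, adjusted p = 0.415 by limma). Dynamin 1 (Dnm1), which cuts the vesicle from the membrane, was at -0.17 and -0.07. Amphiphysin (Amph) was at -0.0020 with a 95% interval of -0.08 to 0.08 at 1 week, and Synj1, Snap91 and Dnajc5, the vesicle chaperone, lay between -0.08 and 0.01 at both timepoints.

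Members of a family were also set against each other within each retina. The log2 ratio of a member that the text names to its relatives was taken for 12 pairs chosen after the values were seen, so the differences are a description with no test. The ratio of Syt2 to Syt1 was lower in bTBI than in sham retinas by a log2 difference of -0.36 at 1 week and -0.35 at 5 weeks, with all 6 bTBI retinas below every sham retina both times. Rims3 to Rims2 differed by -0.31 and -0.30, with 5 and 6 of 6 bTBI retinas below every sham retina. Rims3 to Rims1 differed by -0.15 and -0.24 (3 and 6 bTBI retinas below every sham retina), and Apba1 to Apba2 by -0.18 and -0.16 (4 and 4). For Sv2c to Sv2b the differences were -0.32 and -0.42 (5 and 6), and for Rph3a to Doc2b -0.41 and -0.34 (4 and 6). The ratio of Rab3a to Rab3c differed by 0.03 and -0.00098 (2 and 0), and that of Syn1 to Syn2 by 0.09 and -0.07 (0 and 2). Rab3a to Rab3d differed by -0.52 and -0.16 (5 and 3), and Rab3a to Rab3b by -0.33 and -0.17 (5 and 3). Syn1 to Syn3 stood at -0.03 and -0.22 (0 and 4), and Sv2c to Sv2a at -0.14 and -0.24 (2 and 4). The share of such separation over other gene pairs was not computed. With a pseudocount of 0.1 each of these differences stayed within 1 SD of the retinas from its value. Leaving out a retina or both lens-rich retinas cannot shift a mean of 6 values by 1 SD. Such omissions therefore do not test these differences.

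**Figure D4:**
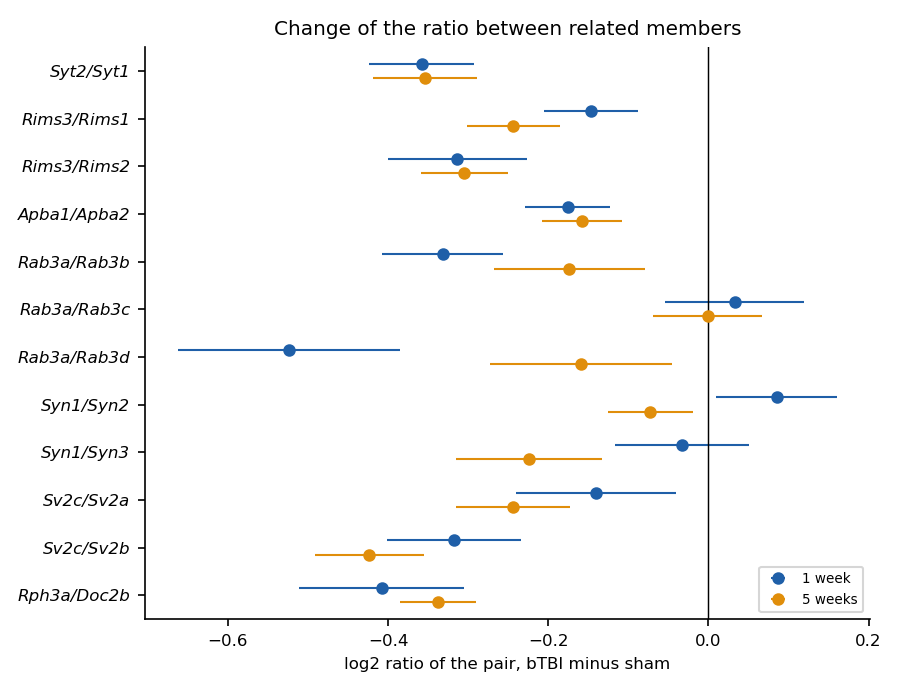
Difference of the mean log2 ratio of related members between bTBI and sham retinas (bTBI minus sham) at each timepoint, for 12 pairs. Bars are the standard error of the difference from the spread over 6 retinas a group. The ratio of Syt2 to Syt1 lies at -0.36 and -0.35, and that of Rab3a to Rab3c at 0.03 and -0.00098.

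Whether the effect of bTBI differed between 1 week and 5 weeks was tested in a fit of all 24 retinas. The timepoints differed in RNA kit and were scaled separately. That cancels in the difference only where it acts alike on sham and bTBI retinas. By limma 0 members passed an adjusted p of 0.05, beside 0.768% of 14455 genes, and 4 members had an unadjusted p under 0.05 (Syt12, Rims1, Rimbp2 and Unc13a), beside 8.50% of all genes. The smallest adjusted p was 0.285, for Rimbp2, whose log2 fold change at 5 weeks exceeded that at 1 week by 0.19 (95% interval 0.05 to 0.33). For the members called at both timepoints the difference was 0.08 (-0.05 to 0.21) for Rph3a, 0.08 (-0.06 to 0.23) for Rims3 and 0.11 (-0.02 to 0.25) for Apba1. Syn1, called at 5 weeks only, differed by -0.04 (-0.19 to 0.11). The difference, 5 weeks minus 1 week, was above 0 in 35 of 45 members, beside 52.1% of all genes, with a median of 0.07.

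Some markers of other cells moved beside these results. Of 13 pan-RGC markers, a list the study itself showed on these samples, 11 were lower at 1 week and 13 at 5 weeks by limma, with a median log2 fold change of -0.55 and -0.63. Their score, the mean log2(CPM + 1), was 6.18 to 6.44 in sham and 5.32 to 6.04 in bTBI retinas at 1 week, and 5.48 to 5.61 and 4.71 to 5.23 at 5 weeks. At 1 week the bTBI retina with the highest RGC score (replicate 2, 6.04) had the highest Rims3 and Apba1 of its group. Its Syt2 (47.65 CPM) was nearly the same as that of replicate 4 (47.56 CPM). Rph3a was highest in replicate 4, Rab3a in replicate 1 and Syn1 in replicate 5. The retina with the lowest score (replicate 5, 5.32) was the lowest for Rims3 but not for the other called members. At 5 weeks the bTBI retina with the highest score (replicate 4, 5.23) had the highest Syt2, Rph3a, Rims3 and Apba1, while Rab3a was highest in replicate 5 and Syn1 in replicate 6. The retina with the lowest score (replicate 1, 4.71) had the lowest Syt2, Syn1, Rph3a and Apba1, while Rims3 and Rab3a were lowest in replicate 6. The part of the RGC markers in the members' changes was not tested. Over all genes 0.985% were called lower and 1.27% higher at 1 week, and 0.823% and 0.0126% at 5 weeks. For the other neurons the called counts were low. Of 10 amacrine markers 0 were called at 1 week and 1 was lower at 5 weeks, and of 10 bipolar, 8 cone and 6 horizontal markers 0 were called at either timepoint (limma, with at most 2 of a list under an unadjusted p of 0.05 in a direction). Of 10 microglia markers 8 were higher at 1 week, and 0 of 9 measured were at 5 weeks, where 3 had an unadjusted p under 0.05. Of 6 genes of astrocytes and reactive glia 3 were higher at 1 week and 0 at 5 weeks, and of 13 lens genes measured at 1 week 0 were called, with 7 higher at an unadjusted p under 0.05. Of 8 markers of Mueller glia 1 was higher at 1 week, with 5 higher and 2 lower at an unadjusted p under 0.05, and 0 were called at 5 weeks, where all 8 had positive estimates and 2 were higher at that p. Their part in the members' results was not tested.

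**Figure D5:**
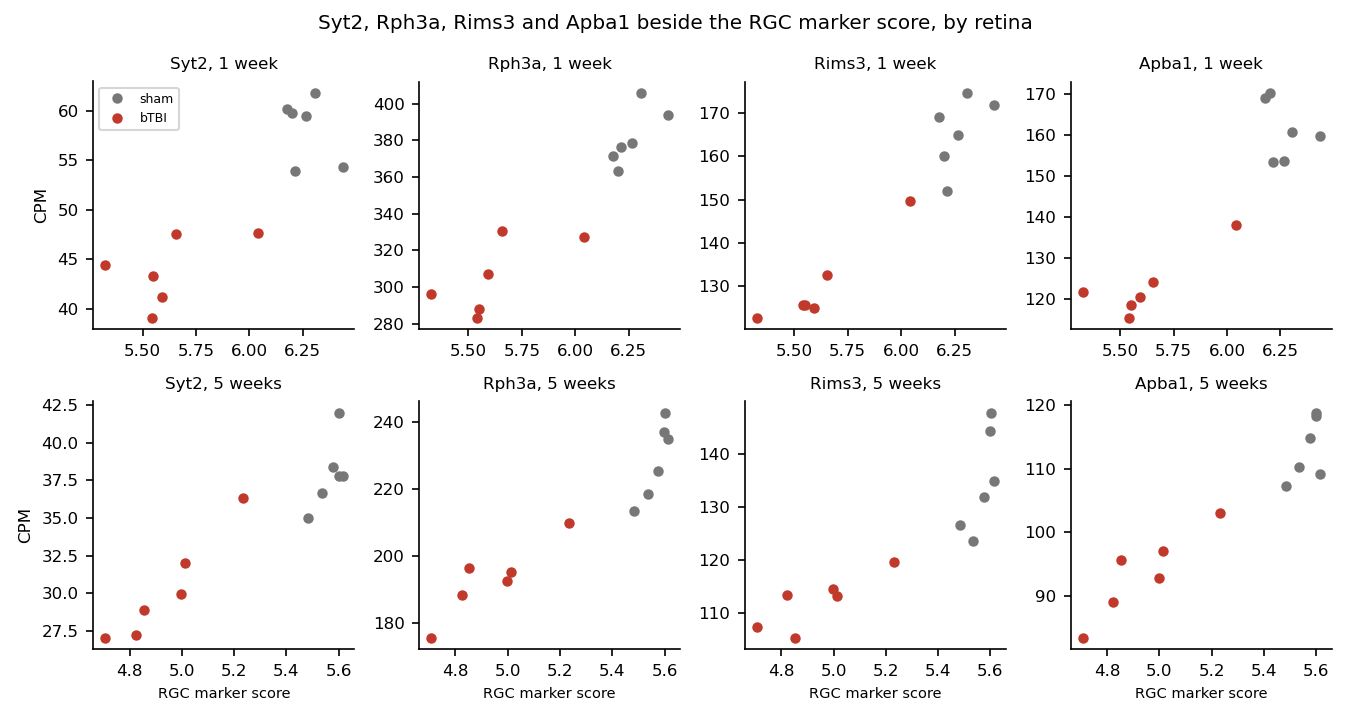
Level in CPM of Syt2, Rph3a, Rims3 and Apba1 against the RGC marker score (mean log2(CPM + 1) of 13 genes) by retina, for 6 sham and 6 bTBI retinas at 1 week (top) and 5 weeks (bottom). At 1 week the bTBI retina at a score of 6.04 lies closest to the sham retinas for Rims3 and Apba1. At 5 weeks the bTBI retina at 5.23 has the highest level of its group in all 4 panels.

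The calls at 1 week were fewer without the lens-rich retinas. With bTBI replicates 5 and 6 left out, 1 member was called (Apba1, -0.37, adjusted p = 0.00321 by limma), while Syt2 (-0.40, adjusted p = 0.00551), Rph3a (-0.29, 0.01005), Rims3 (-0.31, 0.0110) and Rab3a (-0.23, 0.0227) missed the threshold with estimates near those of all retinas. The genes called over the whole table fell as well, to 44 lower and 68 higher from 147 and 189. Without bTBI replicate 3 or without bTBI replicate 4, the retinas rich in Mbp, the calls of Syt2, Rph3a, Rims3 and Apba1 were kept and that of Rab3a was lost.

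The remaining presynaptic genes gave a context for the members. Of 101 genes in 7 further lists, which share some genes, 91 were measured at 1 week and 93 at 5 weeks, of which 7 were lower and 1 higher at 1 week and 6 were lower at 5 weeks. Over all genes 0.985% were lower and 1.27% higher at 1 week, and 0.823% were lower at 5 weeks. The calls of these lists were concentrated in the fusion machinery, with 5 of 14 genes lower each time. Vamp1, a vesicle SNARE, had 96.5, 103 and 119 CPM in sham and 33.6, 47.6 and 76.6 CPM in bTBI retinas at 1 week (-1.14, adjusted p = 0.000334 by limma), and was at -0.51 at 5 weeks. Cplx1, the complexin of conventional synapses, was at -0.92 and -0.83. Of the vesicular transporters Slc17a6, which loads glutamate in RGCs, was lower at both timepoints (-0.53 and -0.71). Of 15 subunits and partners of the proton pump Atp6v1g2 was lower at 1 week (-0.35). Bin2 was the call upward, at 1 week (0.85, adjusted p = 0.00348 by limma). Among 15 clathrin coat genes (with the member Amph), 10 ribbon synapse genes and 12 presynaptic scaffold and adhesion genes 0 were called by limma. Of these lists 0, 1 and 3 genes had an unadjusted p under 0.05 at 1 week, and 2, 1 and 4 at 5 weeks. Over all genes 8.93% were lower and 8.32% higher at that p at 1 week, and 6.95% and 3.97% at 5 weeks. The called members had log2 fold changes between -0.40 and -0.22, smaller in size than those of Vamp1 and Cplx1 at both timepoints.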

How the data were processed

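RNA of 24 retinas was measured by stranded mRNA sequencing. The authors mapped reads to GRCm38 with STAR (020201) and counted them per gene with featureCounts, and whether strand was used is not given in the sources used here. The deposited signal values are read counts per gene on the CPM scale, scaled by the authors to an effective library size, with low genes removed (14922 genes at 1 week, 15920 at 5 weeks). They are whole multiples of a step within 0.01 of it, which gave the reads in the genes kept.

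Here log2(CPM + 1) was compared within each timepoint with limma 3.58.1 (R 4.3.3, statmod 1.5.0, trend=TRUE), adjusted by Benjamini-Hochberg over all genes and called at 0.005. The difference between timepoints was fitted over 14455 shared genes with a threshold of 0.05. The test was also run on simulated data with independent noise for each gene. Those data set no retina apart as rich in lens or Mbp, so they do not test the calls here. Levels were divided by exon length in the GENCODE annotation, and promoters came from RefSeq (GRCm38.p6). The members and lists were chosen with earlier results of these data known. Members were described in full if called, if they had the smallest p of a role without calls, or if they had the largest positive change. Alternatives were other scalings, a pseudocount of 0.1, a filter of 1 CPM in 6 of 12 retinas, other priors, a single fit, a replicate block, a threshold of 0.05 and omitted retinas. Some marker genes are not reported here.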

Additional observations from a re-analysis of the deposited data

Results flagged for a closer look

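Rims3 in bTBI replicate 2 at 1 week stood at 149.6 CPM, above the other 5 bTBI retinas of that timepoint, which had 123 to 133 CPM. Its gap to the next retina exceeded the critical share of the range (Dixon's 95% value for 6 retinas). This was found in 1 of 40 groups of 6 values of the members described in full, and chance sets apart about 1 in 20. The same retina had the highest RGC marker score of its group (6.04).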

How the results depend on the processing

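The number of members called at 1 week (5) was 10 when both timepoints were fitted jointly (365 of 14455 genes lower, from 147 of 14922), 11 at a threshold of 0.05 and 1 without both lens-rich retinas. At 5 weeks (4) it was 0 with a prior without trend (54 genes lower in all, from 131) and 7 at a threshold of 0.05, with 3.06% and 1.93% of all genes lower at that threshold. Leaving out a retina gave 4 to 5 members at 1 week and 3 to 5 at 5 weeks, and 0 for the difference between timepoints under every setting run. With the replicate block 4 members were called at 1 week (Rab3a lost), 5 at 5 weeks (Syt2 gained) and 0 for the difference. Samples of the same replicate number did not all deviate together (correlations -0.25 to 0.54 at 1 week and -0.11 to 0.15 at 5 weeks), so the numbers were not taken as pairs. Rab3d at 5 weeks was the estimate that turned direction, with -0.016 to 0.079 over the omitted retinas. The estimates of the other members described in full kept their direction. Rab3a at 1 week lost its call under 5 of 9 alternatives, and Syn1 at 5 weeks under 2 of 8, beside the omissions given above. Apba1 at 1 week kept its call under every alternative. The cause of these changes was not tested, and an omission also leaves fewer retinas. The lens-rich pair was the only pair left out. The edgeR and DESeq2 alternatives were not run: values were whole multiples of a step, but a stricter test, which takes the step from the lowest value of a retina, did not accept them as whole reads. The depth left as few as 45 reads for the rarest member (Syt12), and differences of the rare Rab3b, Rab3d, Syn3 and Syt12 are the least certain.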
